A study of Sus scrofa with 16 samples.

Results

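Cathepsins, the proton pump of the lysosome, autophagy proteins and RAB GTPases form the route by which a cell sorts, encloses and digests its own material, and their transcripts were examined in satellite cells (SCs), the stem cells of skeletal muscle, from wild-type (WT) piglets and piglets that lack dystrophin (DMD). Members were taken by gene name alone: symbols that begin with CTS and a letter, LAMP, ATG or RAB and a number, ATP6V, ATP6AP, GABARAP, MAP1LC3, SQSTM or VPS. Of 3875 genes in the count table, 53 matched. They comprised 6 cathepsins, 1 lysosomal membrane protein (*LAMP2*), 5 subunits of the proton pump, 15 autophagy genes, 5 VPS genes and 21 RAB GTPases. The count filter passed 37 of them in at least 1 of the pairwise comparisons and 35 in all 4. Of the 16 that passed in none, *RAB17* had no count in any library and the other 15 had 2 to 128 counts over all 16 libraries.

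Lysosomes are acid compartments in which cathepsins cut proteins and other hydrolases cut lipids and sugars. The vacuolar ATPase pumps protons into them, and LAMP proteins line their membrane. In autophagy a double membrane closes around cytoplasm and fuses with the lysosome; ATG enzymes couple LC3 and GABARAP proteins to the lipid of that membrane. RAB GTPases give each compartment its identity, and VPS proteins sort cargo between endosomes, Golgi and lysosome. Muscle relies on this route to renew its proteins and organelles, and autophagy takes part in the differentiation of myoblasts.

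The 16 libraries came from SCs of the intercostal muscle of 4 WT and 4 DMD male piglets aged 3 days. The DMD animals carried a deletion of exon 52 of the *DMD* gene. SCs of each animal were sampled at passage 6 in growth medium (PROL) and after serum reduction (DIFF, for 10 or 7 days, as the methods differ). This gave 4 groups of 4 animals: WT PROL, DMD PROL, WT DIFF and DMD DIFF. All cells had been depleted of CD31 and CD45 positive cells, selected with antibodies for SC surface proteins and expanded in culture. In both genotypes, growth medium held fetal bovine serum and basic fibroblast growth factor. For DIFF the methods name nutrient starvation, with a lower share of serum, from horse, and list no such factor. This change of medium and differentiation itself cannot be told apart between PROL and DIFF. These are primary cultures measured in bulk: in such RNA, fewer cells of a type and less RNA per cell cannot be told apart.

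Library totals ran from 1110050 to 1781174 counts, and the members together held 0.366% to 0.558% of a library. *RN18S*, the 18S ribosomal RNA gene, took 6.32% to 20.4%, with the highest share in DMD PROL replicate 4, whose technical duplicates also differed most. Levels are given as CPM, counts scaled to a common library size, on TMM-scaled library sizes. The test was the quasi-likelihood F test of edgeR, and a call required a log2 fold change beyond ±0.6 together with *p* under 0.05 after Benjamini-Hochberg adjustment over all genes tested. The TMM factors were 1.10 to 1.17 in WT PROL and 0.870 to 0.928 in WT DIFF. With library size alone as the scale, the median log2 fold change of all genes therefore moved from −0.0021 to −0.15 in PROL, from −0.031 to 0.10 in DIFF, from 0.031 to −0.32 between the WT states and from −0.035 to 0.25 in the interaction, while it stayed within 0.1 between the DMD states.

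Markers of other cells differed between the same groups. The summed level of 7 fibroblast markers was 8355 to 10158 CPM in WT PROL, 4147 to 4655 in DMD PROL, 21843 to 24899 in WT DIFF and 10137 to 13252 in DMD DIFF. That of 8 markers of the skeletal muscle lineage was 274 to 376, 5420 to 8947, 2669 to 4650 and 16993 to 20367 CPM in the same order. Of 13 muscle and 11 fibroblast markers looked for, these 8 and 7 were in the count table, and all of them had counts. PAX7, the classic marker of quiescent SCs, was looked for and was not among them. Macrophages and osteoclasts are rich in cathepsins. The 8 markers of macrophages and other blood cells summed to 44.7 to 87.6, 33.1 to 56.3, 59.1 to 71.1 and 30.8 to 38.4 CPM, with *FCER1G* and *CD3E* at 0. They did not move together: in DIFF *CD14* averaged 52.1 CPM in WT and 20.0 in DMD, and *TYROBP* 6.56 and 12.4. The 4 osteoclast markers, of which *CTSK* is 1 and *ACP5* was at 0, summed to 18.6 to 46.0, 5.87 to 14.4, 25.5 to 41.3 and 15.6 to 36.4 CPM. This sum was mostly *CTSK*, itself a member, which averaged 27.5 of 28.2, 10.1 of 11.0, 32.3 of 33.6 and 23.8 of 24.5 CPM. It therefore gives no separate view of osteoclasts. Of 5 endothelial markers the sums were 147 to 162, 15.9 to 34.1, 77.9 to 121 and 34.0 to 50.4 CPM. Their part in the results that follow was not tested.

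In PROL the members called between genotypes were the cathepsins *CTSZ* and *CTSK*, *LAMP2* and *ATG7*, all lower in DMD, and in DIFF they were *CTSL*, *CTSZ*, *LAMP2* and *MAP1LC3A*, all again lower. Of 36 members tested in PROL, 0 were higher (8.36% of all tested genes were) and 4, or 11.1%, were lower (9.87% of all). Of 36 tested in DIFF, 0 were higher (16.1% of all) and 4, or 11.1%, were lower (17.5% of all). The share of lower members was thus close to that of all genes in PROL and below it in DIFF. Over all genes, 160 were higher and 189 lower in PROL (122 and 264 with library size alone) and 308 higher and 335 lower in DIFF (387 and 267). The median log2 fold change of the members was −0.26 in PROL, beside −0.0021 for all genes, and 30 of the 36 lay below 0, as did 960 of 1914 of all genes. In DIFF the members' median was −0.12, beside −0.031 for all genes, and with library size alone it turned to 0.019. With 0 members called higher in either state under edgeR, DESeq2 gave 0 as well, and at an unadjusted *p* under 0.05 edgeR had 0 higher in PROL and 5 in DIFF. These called genes were lower in DMD, as were most fibroblast markers: 5 of 6 tested were called lower in PROL and 5 of 7 in DIFF. The fibroblast marker *COL1A2* went the other way in DIFF, where it averaged 9114 CPM in DMD and 7849 in WT. Of the muscle markers, 5 of 5 tested in PROL and 6 of 6 in DIFF were called higher.

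**Figure D1:**
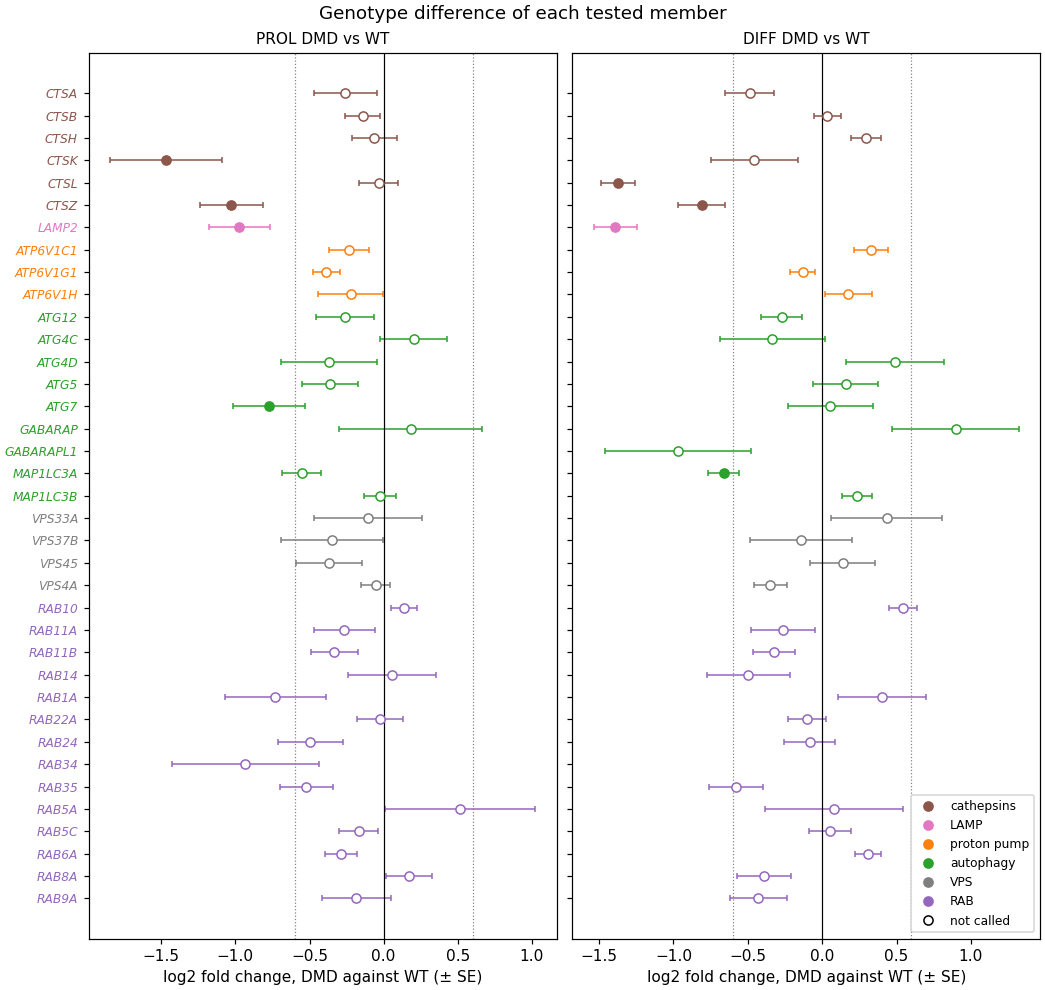
Log2 fold change (± SE) between DMD and WT of each member tested, in PROL (left) and DIFF (right), colored by family; filled points were called and dotted lines mark ±0.6. All filled points lie on the negative side: *CTSK*, *CTSZ*, *LAMP2* and *ATG7* in PROL, and *CTSL*, *CTSZ*, *LAMP2* and *MAP1LC3A* in DIFF.

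*CTSL*, a cysteine protease and the cathepsin with the most counts, separated the genotypes in DIFF. The WT DIFF libraries stood at 887, 976, 1139 and 814 CPM and the DMD DIFF libraries at 315, 392, 399 and 387. Every WT library lay above every DMD library, with means of 954 ± 139.8 and 373 ± 39.2 (SD, n = 4 each). *CTSL* was 2.59-fold lower in DMD (log2 fold change −1.37 with SE 0.11 and adjusted *p* = 5.07e-08, edgeR). In PROL the values overlapped, with 336, 413, 522 and 378 CPM in WT and 342, 415, 392 and 480.4 in DMD (log2 fold change −0.03 with SE 0.13 and adjusted *p* = 0.890 in that test).

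In WT, *CTSL* rose from PROL to DIFF, by 2.15 to 2.64 times in the 4 animals (log2 fold change 1.20 with SE 0.13 and adjusted *p* = 5.27e-06, edgeR), while in DMD it was higher in DIFF in 1 of 4 animals, with ratios from 0.805 to 1.02 and no call (log2 fold change −0.13 with SE 0.11 and adjusted *p* = 0.364). The genotype difference itself differed between the states, with an interaction of −1.34 (SE 0.18, adjusted *p* = 8.79e-06 in edgeR). *CTSL* was the only member called in the interaction, 1 of 38 tested toward a lower effect in DIFF, where 13.0% of all genes were called, and 0 toward a higher one, where 10.5% were (263 and 213 of 2030 genes, or 134 and 387 with library size alone). For the higher direction, library size alone called 8 members, DESeq2 and RLE scaling each called *RAB6A*, and at an unadjusted *p* under 0.05 edgeR had 6.

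*CTSZ*, a carboxypeptidase of the same family, was lower in DMD in both states. In PROL it stood at 145, 118, 151 and 119 CPM in WT and 56.4, 43.5, 64.6 and 99.8 in DMD. The groups did not overlap. The highest DMD library was replicate 4, which also had the highest *RN18S* share. The level was 2.04-fold lower (log2 fold change −1.03 with SE 0.21 and adjusted *p* = 0.00201, edgeR), and without DMD PROL replicate 4 the log2 fold change was −1.29 (adjusted *p* = 6.11e-05). In DIFF it stood at 175, 142, 181 and 159.9 CPM in WT and 74.1, 102, 80.7 and 122 in DMD, again without overlap (log2 fold change −0.81 with SE 0.16 and adjusted *p* = 4.39e-04 in the same test). The interaction was 0.21 (SE 0.28, adjusted *p* = 0.624) and was not called.

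*CTSK*, the collagen-degrading cathepsin best known from osteoclasts, had few reads. It stood at 15.9, 18.6, 46.0 and 29.3 CPM in WT PROL and 11.0, 10.2, 5.87 and 13.1 in DMD PROL, 2.77-fold lower in DMD (log2 fold change −1.47 with SE 0.38 and adjusted *p* = 0.00910, edgeR). The groups did not overlap, but WT replicate 3 lay well above the other WT libraries and held 84 of the 174 WT counts. Without it the call was lost (log2 fold change −1.10, adjusted *p* = 0.0526 in edgeR). In DIFF, with 34.2, 32.2, 38.7 and 24.2 CPM in WT and 36.4, 25.8, 17.3 and 15.6 in DMD, the values overlapped (log2 fold change −0.46 with SE 0.29 and adjusted *p* = 0.216).

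The remaining cathepsins were not called between genotypes in either state. *CTSB*, an abundant cysteine protease, stood at 258, 319, 372 and 267 CPM in WT PROL, 294, 298, 266 and 255 in DMD PROL, 398, 444, 477 and 431 in WT DIFF and 476, 429, 439 and 474 in DMD DIFF. The genotypes overlapped in both states, while on the TMM scale every DIFF library lay above every PROL library. *CTSH*, an aminopeptidase, stood at 275, 278, 355 and 287 CPM in WT PROL, 232, 270.3, 398 and 256 in DMD PROL, 380.1, 399, 462 and 421 in WT DIFF and 590.4, 471, 547 and 461 in DMD DIFF. Its difference in DIFF passed the adjusted *p* but not the fold threshold and was in the opposite direction to that of *CTSL* (log2 fold change 0.30 with SE 0.10 and adjusted *p* = 0.0234, edgeR). *CTSA*, a carboxypeptidase that also protects other lysosomal enzymes, had 106 ± 15.0 CPM in WT DIFF and 76.5 ± 13.3 in DMD DIFF (log2 fold change −0.49 with SE 0.16 and adjusted *p* = 0.0215) and was likewise short of the fold threshold.

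Between states, *CTSB* and *CTSH* were called in DMD (log2 fold change 0.70 with SE 0.09 and adjusted *p* = 8.22e-06 for *CTSB* and log2 fold change 0.84 with SE 0.16 and adjusted *p* = 0.00115 for *CTSH*, edgeR) and were higher in DIFF in 4 of 4 animals of both genotypes. In WT their changes of 0.52 and 0.47 had adjusted *p* = 0.00184 and 0.00172 in edgeR, below the fold threshold, and *CTSB* was called without WT PROL replicate 3 (0.62, adjusted *p* = 1.91e-04). *CTSK* rose in DMD as well (log2 fold change 1.24 with SE 0.36 and adjusted *p* = 0.0105), in 4 of 4 animals, and was higher in 2 of 4 WT animals without a call (log2 fold change 0.22 with SE 0.31 and adjusted *p* = 0.602). Its call in DMD was lost without DMD DIFF replicate 1, the highest of that group (log2 fold change 0.95, adjusted *p* = 0.0583 in edgeR). The interaction was not called for any of the 3, with adjusted *p* = 0.411 for *CTSB*, 0.179 for *CTSH* and 0.132 for *CTSK* in edgeR.

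Summed over the 6 cathepsins, the level was 1263 ± 202 CPM in WT PROL, 1125 ± 71.3 in DMD PROL, 2110 ± 215 in WT DIFF and 1540 ± 28.6 in DMD DIFF (SD, n = 4). The DIFF groups did not overlap, with 1936 to 2417 CPM in WT and 1511 to 1577 in DMD. Without *CTSL* the sums in DIFF were 1156 ± 82.1 in WT and 1167 ± 64.4 in DMD, so that the lower sum of DMD DIFF rested on that gene. On library size alone, the ratio of WT DIFF to WT PROL fell from 1.67 to 1.31 for all 6. Without *CTSL* it fell from 1.36 to 1.07.

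**Figure D2:**
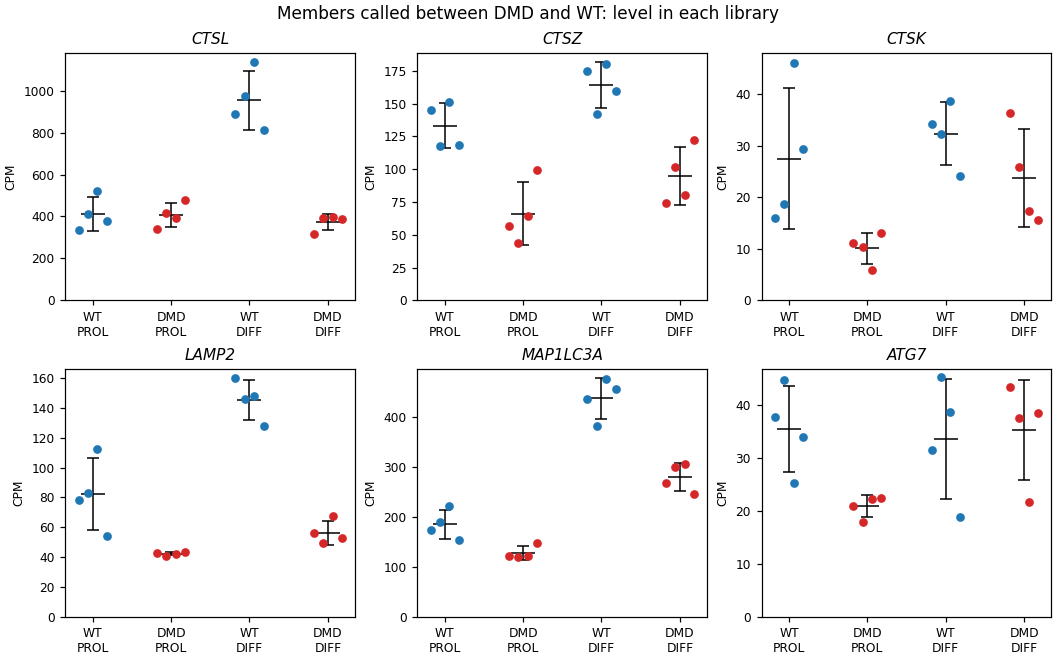
CPM of the 6 members called between DMD and WT, in each of the 16 libraries (blue, WT; red, DMD; bars, mean ± SD of 4 animals). *CTSL* in WT DIFF, at 814 to 1139 CPM, stands above the other 3 groups, while the DMD values of *CTSZ*, *LAMP2* and *MAP1LC3A* lie below all WT values in both states.

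*LAMP2*, which encodes a membrane protein needed for the fusion of autophagosomes with lysosomes, was lower in DMD in both states. In PROL the WT libraries stood at 78.3, 83.2, 113 and 54.0 CPM and the DMD libraries at 42.9, 41.0, 42.3 and 43.3. The DMD values were close to each other and below all WT values. *LAMP2* was 1.96-fold lower in DMD (log2 fold change −0.97 with SE 0.21 and adjusted *p* = 0.00224, edgeR). In DIFF the libraries stood at 160.0, 146, 148 and 128 CPM in WT and 56.0, 49.3, 67.7 and 52.6 in DMD, 2.62-fold lower (log2 fold change −1.39 with SE 0.15 and adjusted *p* = 8.36e-07). The groups were again apart, with the highest DMD library at 67.7 CPM and the lowest WT library at 128.

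From PROL to DIFF *LAMP2* rose in WT (log2 fold change 0.81 with SE 0.18 and adjusted *p* = 0.00173, edgeR; 0.47 with library size alone, below the fold threshold). In DMD all 4 animals had more in DIFF, by 1.20 to 1.60 times, without a call (log2 fold change 0.40 with SE 0.18 and adjusted *p* = 0.0775). The interaction was −0.42 (SE 0.25, adjusted *p* = 0.233), so a difference between the genotypes in this rise was not shown. A row named LAMP-1, which the name rule does not take and which was chosen after its values were seen, was not called between genotypes. It had 281 ± 39.8 CPM in WT DIFF and 239 ± 19.8 in DMD DIFF (log2 fold change −0.25 with SE 0.12 and adjusted *p* = 0.0840, edgeR).

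The vacuolar ATPase was represented by subunits of its soluble V1 part, which splits ATP, and none of the 3 tested was called between genotypes in edgeR or DESeq2. *ATP6V1G1*, a stalk subunit with the most counts of the family, stood at 536, 509, 493 and 484 CPM in WT PROL and 354, 397, 369 and 444 in DMD PROL. The groups did not overlap, and the difference passed the adjusted *p* but not the fold threshold (log2 fold change −0.39 with SE 0.09 and adjusted *p* = 0.00497, edgeR). In DIFF it stood at 546, 574, 595 and 566 CPM in WT and 481, 545, 565 and 519 in DMD, with overlap (log2 fold change −0.13 with SE 0.09 and adjusted *p* = 0.230).

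*ATP6V1C1*, a subunit that links both parts of the pump, rose from PROL to DIFF in DMD. It stood at 108, 134, 141 and 129 CPM in DMD PROL and 218, 229, 210.3 and 199 in DMD DIFF, apart in all libraries and higher in 4 of 4 animals (log2 fold change 0.74 with SE 0.12 and adjusted *p* = 6.52e-05, edgeR). In WT the values were 141, 128, 178 and 149.6 CPM in PROL and 171, 161, 196 and 145 in DIFF and overlapped (log2 fold change 0.17 with SE 0.13 and adjusted *p* = 0.328). The interaction was 0.56 (SE 0.17, adjusted *p* = 0.0161 in edgeR), under the *p* threshold and short of the fold threshold. It was called without WT replicate 2 (0.61) or DMD replicate 3 (0.62) or 4 (0.60).

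*ATP6V1H*, a regulatory subunit, stood at 53.9, 51.2, 56.3 and 36.8 CPM in DMD PROL and 112, 108, 83.6 and 89.6 in DMD DIFF, a rise of 1.97 times (log2 fold change 0.98 with SE 0.17 and adjusted *p* = 2.08e-04, edgeR). The WT libraries moved the same way, from 62.3, 59.6, 71.1 and 35.5 to 93.0, 68.7, 98.0 and 83.3 CPM, and overlapped (log2 fold change 0.57 with SE 0.20 and adjusted *p* = 0.0295). All 4 animals of each genotype had more in DIFF. The change in WT was called without WT PROL replicate 1 or 3 or WT DIFF replicate 2 (log2 fold changes 0.61, 0.69 and 0.66). The interaction was not called (adjusted *p* = 0.300). *ATP6V1A*, a catalytic subunit, had at most 14 counts in a library and *ATP6V1G2*, a brain form of the stalk subunit, at most 2, and neither was tested.

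The 5 pump genes summed to 717 ± 37.0 CPM in WT PROL, 574 ± 40.2 in DMD PROL, 831 ± 45.1 in WT DIFF and 843 ± 36.3 in DMD DIFF (SD, n = 4). The PROL groups did not overlap, at 673 to 751 CPM in WT and 519 to 614 in DMD. DMD was at 0.801 times WT in PROL and 1.01 times in DIFF. On library size alone the ratios were 0.716 and 1.10, and the ratio of WT DIFF to WT PROL turned from 1.16 to 0.908.

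**Figure D3:**
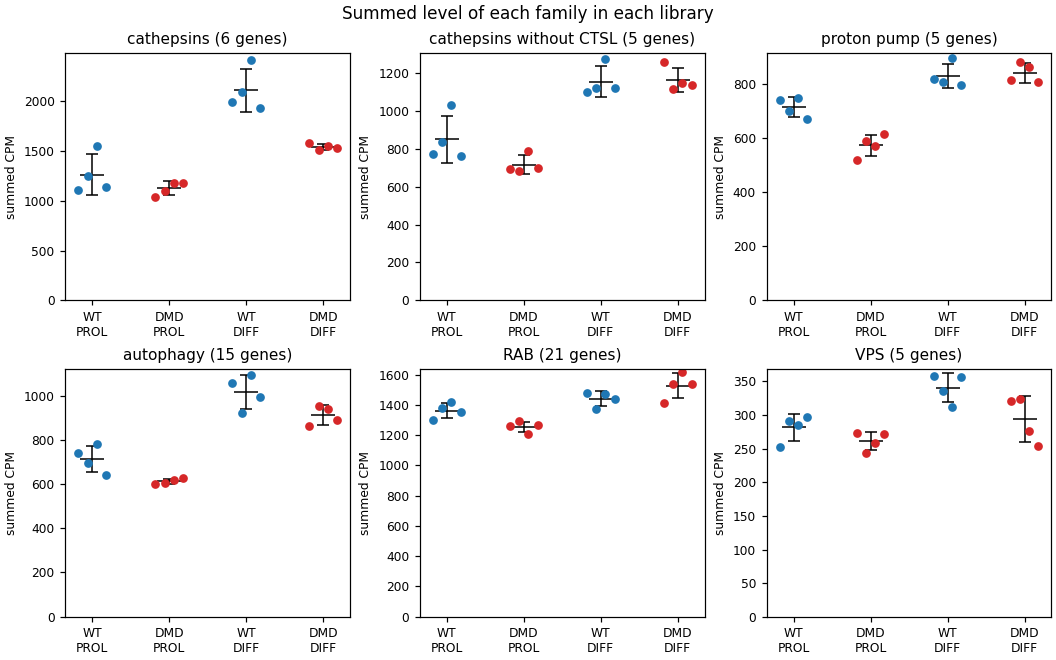
Summed CPM of each family in each library (blue, WT; red, DMD; bars, mean ± SD of 4 animals). The cathepsin sum is highest in WT DIFF, at 1936 to 2417 CPM, and no longer stands above DMD DIFF when *CTSL* is left out. The pump sum is lowest in DMD PROL, at 519 to 614 CPM.

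Among autophagy genes, *MAP1LC3A*, one of the LC3 proteins that coat the autophagosome, was lower in DMD in DIFF and rose from PROL to DIFF in both genotypes. It stood at 174, 189, 222 and 154 CPM in WT PROL and 121, 120.4, 121 and 147 in DMD PROL. In DIFF the WT libraries stood at 435, 381, 475 and 455 CPM and the DMD libraries at 267, 300.2, 305 and 246. WT and DMD did not overlap in either state. In DIFF the gene was called (log2 fold change −0.66 with SE 0.10 and adjusted *p* = 5.04e-05, edgeR; −0.53 with library size alone, below the fold threshold). In PROL the difference of −0.55 (SE 0.13, adjusted *p* = 0.00590) missed the fold threshold, and it was called without DMD PROL replicate 4 (−0.62, adjusted *p* = 0.00398 in edgeR) or WT PROL replicate 4 (−0.63, adjusted *p* = 0.00345).

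The rise of *MAP1LC3A* to DIFF was 2.35-fold in WT (log2 fold change 1.23 with SE 0.12 and adjusted *p* = 6.87e-07, edgeR) and 2.19-fold in DMD (log2 fold change 1.13 with SE 0.11 and adjusted *p* = 5.90e-07), in 4 of 4 animals of each. It was the only member called higher in DIFF in both genotypes. The interaction of −0.11 (SE 0.16, adjusted *p* = 0.675) was not called.

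*MAP1LC3B*, its close relative and the autophagy gene with the most counts, was not called between genotypes. It stood at 290.0, 253, 296 and 228 CPM in WT PROL, 234, 274, 275 and 277 in DMD PROL, 336, 260.2, 349.5 and 319.8 in WT DIFF and 353, 391, 399 and 368 in DMD DIFF. In PROL the groups overlapped (log2 fold change −0.02 with SE 0.11 and adjusted *p* = 0.902, edgeR). In DIFF every DMD library lay above every WT library, the reverse of *MAP1LC3A*, without passing the test (log2 fold change 0.23 with SE 0.10 and adjusted *p* = 0.0724). The related *GABARAP* and *GABARAPL1* had few reads, with 4 to 26 and 0 to 20 counts in a library, and no call. *GABARAPL1* was at 9.20 ± 3.00 CPM in WT DIFF and 4.73 ± 2.44 in DMD DIFF (log2 fold change −0.97 with SE 0.49 and adjusted *p* = 0.115), *GABARAP* at 6.58 ± 2.72 and 12.4 ± 3.74 (log2 fold change 0.90 with SE 0.43 and adjusted *p* = 0.0952).

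*ATG7*, the E1-like enzyme that starts the coupling of LC3 to lipid, stood at 37.7, 44.7, 25.2 and 33.9 CPM in WT PROL and 20.8, 17.9, 22.3 and 22.3 in DMD PROL. The groups did not overlap, and the level was 1.71-fold lower in DMD (log2 fold change −0.77 with SE 0.24 and adjusted *p* = 0.0276, edgeR). This call was weak: it was lost in 7 of 19 other settings, among them the omission of WT replicate 1 or 2 or DMD replicate 1 or 2 (adjusted *p* = 0.0610, 0.0871, 0.0551 and 0.0718 in edgeR). In DIFF the libraries stood at 31.4, 45.3, 38.7 and 18.8 CPM in WT and 43.4, 37.5, 21.6 and 38.4 in DMD and overlapped (log2 fold change 0.05 with SE 0.29 and adjusted *p* = 0.891). The rise within DMD was called (log2 fold change 0.75 with SE 0.25 and adjusted *p* = 0.0254), in 3 of 4 animals, and lost in 6 of 19 settings, among them the omission of DMD PROL replicate 2 or DMD DIFF replicate 1, 2 or 4 (adjusted *p* = 0.0663, 0.0879, 0.0597 and 0.0515).

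Other genes of the conjugation machinery were not called between genotypes. *ATG5*, which joins *ATG12* in a complex that attaches LC3 to lipid, was at 64.8 ± 9.10 CPM in WT PROL and 50.8 ± 10.4 in DMD PROL (log2 fold change −0.36 with SE 0.19 and adjusted *p* = 0.168, edgeR). From PROL to DIFF it moved in WT without overlap, to 43.0 ± 9.17 CPM, with a change just inside the fold threshold (log2 fold change −0.60 with SE 0.20 and adjusted *p* = 0.0242), and just past it with the animal as a block (−0.60, adjusted *p* = 0.0131 in edgeR), as it was with DESeq2. *ATG12* was at 104 ± 7.86 CPM in WT DIFF and 87.6 ± 7.06 in DMD DIFF (log2 fold change −0.27 with SE 0.14 and adjusted *p* = 0.114). *ATG4C* and *ATG4D*, proteases that trim LC3 proteins, had adjusted *p* of 0.548 and 0.437 in PROL and 0.465 and 0.241 in DIFF in edgeR. *ATG2A*, *ATG2B*, *ATG9A*, *ATG9B*, *ATG10* and *ATG16L1* had at most 14 counts in any library and were not tested.

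The VPS genes were not called between genotypes or states in edgeR or DESeq2. *VPS4A*, an ATPase that takes apart the ESCRT coat on endosomes and had the most counts of the family, stood at 189.9, 199, 206 and 199 CPM in WT PROL, 194, 182, 196 and 199.5 in DMD PROL, 293, 262, 248 and 279 in WT DIFF and 242, 232, 203 and 184 in DMD DIFF. WT and DMD overlapped in PROL and were apart in DIFF, short of the fold threshold (log2 fold change −0.35 with SE 0.11 and adjusted *p* = 0.0157, edgeR). *VPS45* and *VPS33A*, which help vesicles to fuse, and *VPS37B*, of the ESCRT-I complex, had adjusted *p* of 0.632, 0.361 and 0.767 in DIFF in that test.

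None of the RAB GTPases was called between genotypes, of 14 tested in PROL and 13 in DIFF. Of all genes, 8.36% were higher and 9.87% lower in PROL, and 16.1% and 17.5% in DIFF. At an unadjusted *p* under 0.05 edgeR had 4 lower in PROL and 2 higher and 4 lower in DIFF, and DESeq2 called 0. Between states 3 were called, all in DMD. Of these, 2 were higher in DIFF (15.4% of the RAB genes tested, beside 16.0% of all genes) and 1 lower (7.69%, beside 12.4%). *RAB6A*, which directs traffic at the Golgi, stood at 268, 292, 239.7 and 253 CPM in WT PROL, 195, 236, 202 and 239 in DMD PROL, 294, 314, 302 and 297 in WT DIFF and 364, 362, 409 and 378 in DMD DIFF. DMD lay below WT in PROL (log2 fold change −0.29 with SE 0.11 and adjusted *p* = 0.0633, edgeR) and above WT in DIFF (log2 fold change 0.31 with SE 0.09 and adjusted *p* = 0.00889), without overlap in either state and without a call. The rise to DIFF was called in DMD (log2 fold change 0.79 with SE 0.10 and adjusted *p* = 5.29e-06) and not in WT (log2 fold change 0.19 with SE 0.10 and adjusted *p* = 0.132). The interaction of 0.59 (SE 0.13, adjusted *p* = 0.00147) lay just inside the fold threshold, and DESeq2 put it just past (0.61, adjusted *p* = 7.97e-05). It was called without WT replicate 3 (0.63) or 4 (0.61) and without DMD replicate 2 (0.65) or 4 (0.64).

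*RAB1A*, of the traffic from endoplasmic reticulum to Golgi, had few reads, at 6.13, 11.5, 11.7 and 17.1 CPM in DMD PROL and 22.4, 34.0, 33.1 and 27.03 in DMD DIFF. The groups were apart, 2.50-fold higher in DIFF (log2 fold change 1.32 with SE 0.32 and adjusted *p* = 0.00280, edgeR). In WT it stood at 17.4, 16.1, 19.7 and 23.1 CPM in PROL and 21.9, 23.4, 29.7 and 12.1 in DIFF, with overlap (log2 fold change 0.19 with SE 0.31 and adjusted *p* = 0.656). The interaction had an adjusted *p* of 0.0571 in edgeR and was called without DMD replicate 4 (1.40, adjusted *p* = 0.0314).

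*RAB8A*, which serves traffic to the plasma membrane, fell from PROL to DIFF in DMD. It stood at 109, 98.6, 85.7 and 109 CPM in DMD PROL and 57.4, 79.8, 47.5 and 62.6 in DMD DIFF, without overlap and lower in 4 of 4 animals (log2 fold change −0.70 with SE 0.17 and adjusted *p* = 0.00319, edgeR). The call was lost without DMD DIFF replicate 3 (log2 fold change −0.59, adjusted *p* = 0.0119 in edgeR, below the fold threshold). In WT it stood at 79.7, 77.0, 108 and 87.9 CPM in PROL and 75.2, 86.2, 89.0 and 71.2 in DIFF and overlapped (log2 fold change −0.14 with SE 0.16 and adjusted *p* = 0.496). The interaction was −0.57 (SE 0.23, adjusted *p* = 0.0688 in edgeR) and not called, and it was called without DMD replicate 2 (−0.73, adjusted *p* = 0.0316).

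*RAB10*, a relative of *RAB8A* and the RAB gene with the most counts, stood at 332, 312, 340.4 and 342 CPM in WT PROL, 385, 374, 347 and 368 in DMD PROL, 293, 247, 249 and 254 in WT DIFF and 374, 366, 396 and 408 in DMD DIFF. In both states the DMD libraries were all higher than the WT libraries. In PROL the difference missed both thresholds (log2 fold change 0.14 with SE 0.09 and adjusted *p* = 0.257, edgeR). In DIFF it was close to the fold threshold (log2 fold change 0.55 with SE 0.09 and adjusted *p* = 1.50e-04). Without WT DIFF replicate 1, the highest of that group, the log2 fold change in DIFF was 0.60 and the gene was called (adjusted *p* = 1.20e-04). From PROL to DIFF it fell in WT, short of the fold threshold (log2 fold change −0.35 with SE 0.10 and adjusted *p* = 0.00745). The interaction of 0.41 (SE 0.12, adjusted *p* = 0.0123) was short of it as well. *RAB35*, of recycling endosomes, lay below WT in DMD in both states without overlap, at 55.9 ± 10.3 against 79.6 ± 8.19 CPM in PROL (log2 fold change −0.52 with SE 0.18 and adjusted *p* = 0.0406) and 49.9 ± 7.18 against 73.9 ± 11.7 in DIFF (log2 fold change −0.58 with SE 0.18 and adjusted *p* = 0.0142), short of the fold threshold both times.

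The other RAB genes overlapped between genotypes or missed the adjusted *p*. They include the endosomal *RAB5A* and *RAB5C*, the recycling *RAB11A* and *RAB11B*, *RAB9A* of the path from endosome to Golgi, *RAB14*, *RAB22A*, *RAB24* and *RAB34*. Their log2 fold changes ran from −0.93 (*RAB34*, with 2 to 18 counts in a library) to 0.52 (*RAB5A*) in PROL and from −0.50 (*RAB14*) to 0.08 (*RAB5A*) in DIFF. *RAB1B*, *RAB3A*, *RAB17*, *RAB27A*, *RAB28*, *RAB32* and *RAB33A* were too low to test. *RAB27A* had 10 counts in DMD PROL and 0 in WT PROL, 8 of the 10 in DMD replicate 1. RAB and LC3 genes have close relatives, and how reads that fit several of them were counted is not given in the sources used here.

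**Figure D4:**
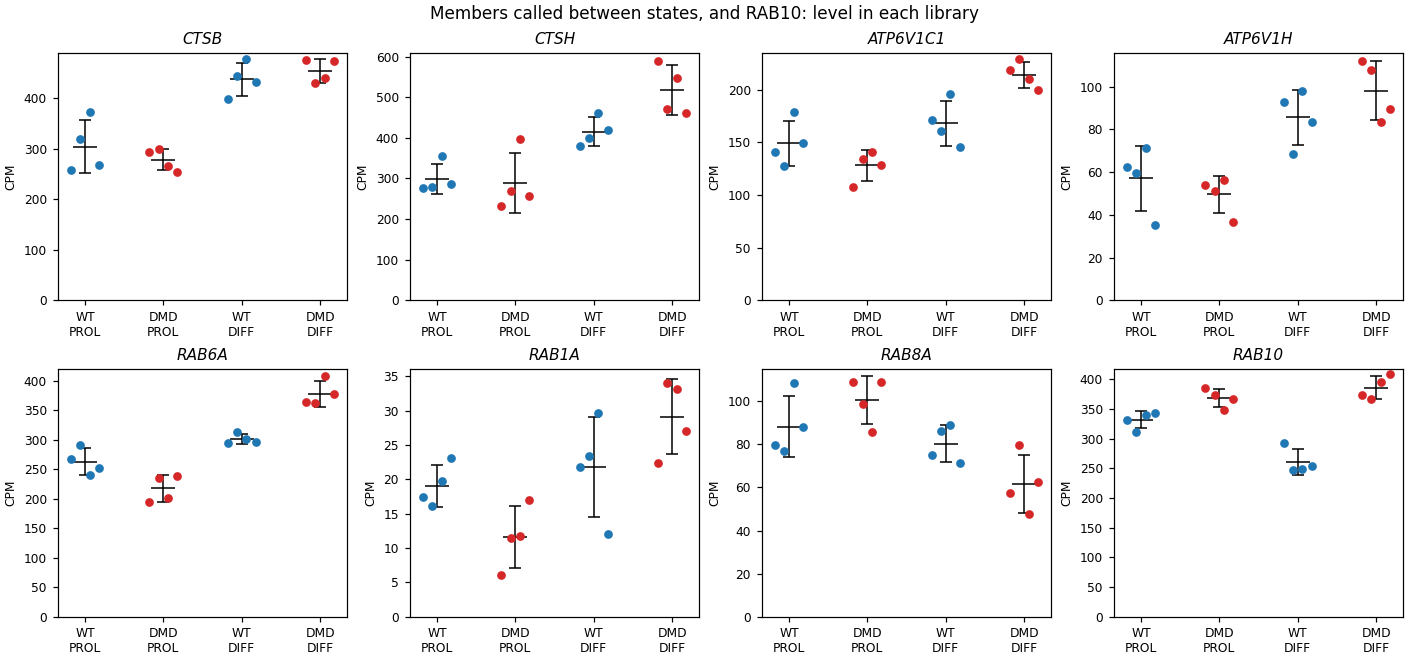
CPM of the members called between PROL and DIFF that were not called between genotypes, and of *RAB10*, in each library (blue, WT; red, DMD; bars, mean ± SD of 4 animals). *ATP6V1C1*, *ATP6V1H*, *RAB6A* and *RAB1A* rise from DMD PROL to DMD DIFF without overlap and *RAB8A* falls.

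Between states, 3 of 37 members were higher in WT DIFF than in WT PROL and 0 lower, and 9 of 35 were higher in DMD DIFF than in DMD PROL and 1 lower. The shares higher were 8.11% in WT, where 17.9% of all genes were, and 25.7% in DMD, where 16.0% were. The shares lower were 0% and 2.86%, where 14.3% and 12.4% of all genes were. Whether the shares of the genotypes differ was not tested beyond the gene-by-gene interaction, which called *CTSL* only. Lower in WT, *ATG5* was called with the animal as a block and with DESeq2, and at an unadjusted *p* under 0.05 edgeR had 2 members. Over all genes, 343 were higher and 275 lower in WT (194 and 564 with library size alone) and 302 higher and 234 lower in DMD.

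The median log2 fold change of the members from PROL to DIFF was 0.21 in WT, beside 0.031 for all genes, and 0.39 in DMD, beside 0.015. With library size alone it turned to −0.13 in WT and was 0.31 in DMD. In WT the 3 called members were *MAP1LC3A*, *CTSL* and *LAMP2*. In DMD the 9 were 3 cathepsins (*CTSB*, *CTSH* and *CTSK*), both pump subunits named above, *MAP1LC3A*, *ATG7*, *RAB6A* and *RAB1A*. Without DMD PROL replicate 4 all 10 DMD calls stood and *CTSZ* joined them (log2 fold change 0.78, adjusted *p* = 0.00691 in edgeR). The 15 autophagy genes summed to 713 ± 60.4 CPM in WT PROL, 611 ± 12.1 in DMD PROL, 1017 ± 75.6 in WT DIFF and 912 ± 43.3 in DMD DIFF (SD, n = 4). On this TMM scale every DIFF library lay above every PROL library. The 21 RAB genes summed to 1361 ± 48.6, 1256 ± 34.2, 1440 ± 49.5 and 1526 ± 83.7 CPM in the same order. With library size alone, the ratio of WT DIFF to WT PROL fell from 1.43 to 1.12 for the autophagy sum. For the RAB sum it turned from 1.06 to 0.83. Summed muscle and fibroblast markers were higher in DIFF as well. For muscle markers the sums, given above, were 2.43 times higher in DMD DIFF than in DMD PROL and 11.6 times higher in WT DIFF than in WT PROL. For fibroblast markers they were 2.65 and 2.45 times higher, with 4 of 6 called higher and 1 lower in DMD and 6 of 7 called higher in WT. In DMD the fibroblast sum was mostly *COL1A2*, which averaged 3244 of 4430 CPM in PROL and 9114 of 11748 in DIFF.

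**Figure D5:**
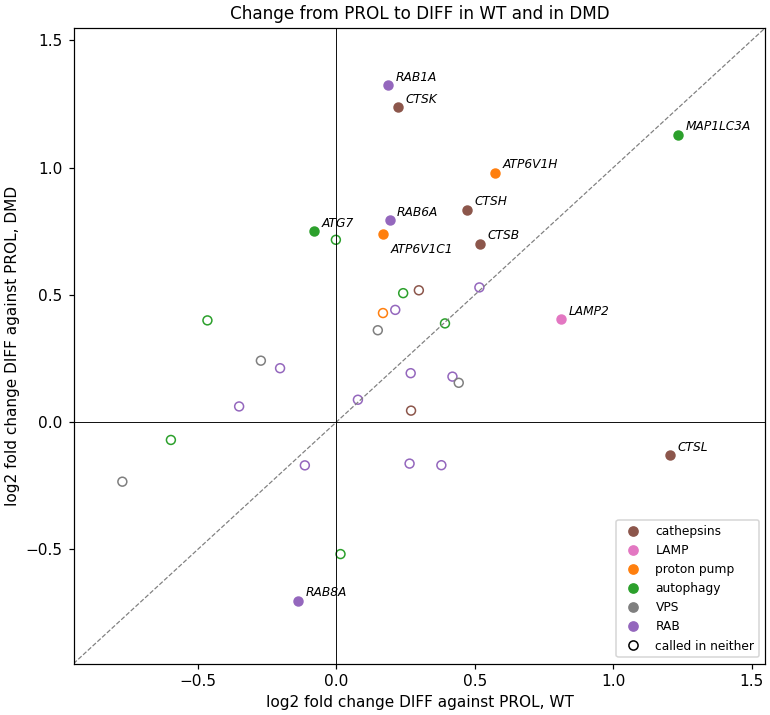
Log2 fold change from PROL to DIFF in WT (horizontal) and in DMD (vertical) of the 35 members tested in both, colored by family; filled points were called in at least 1 genotype and the dashed line marks equal change. *MAP1LC3A* lies near the line at 1.23 and 1.13, *CTSL* at 1.20 and −0.13.

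Genes of the same route that the name rule does not take were grouped in lists from general knowledge. Of 11 lysosomal hydrolases and helpers tested, 0 were called in PROL (1 at an unadjusted *p* under 0.05, 0 with DESeq2) and 4 in DIFF, all lower in DMD (36.4%, beside 17.5% of all genes; DESeq2 called 2). *SUMF1*, which activates sulfatases, averaged 129 ± 30.9 CPM in WT DIFF and 84.6 ± 6.19 in DMD DIFF (log2 fold change −0.63 with SE 0.16 and adjusted *p* = 0.00363, edgeR). The acid phosphatase gene *ACP2* (log2 fold change −0.77 with SE 0.28 and adjusted *p* = 0.0325) and the β-glucuronidase gene *GUSB* (log2 fold change −0.74 with SE 0.28 and adjusted *p* = 0.0390) overlapped between the groups. The list's median was −0.46 in DIFF and −0.14 in PROL. The value in PROL was that of *GBA2*, whose enzyme lies outside the lysosome, so not all 11 genes are lysosomal. Of 5 genes of the lysosomal membrane and lipid egress, 0 were called in PROL (1 higher and 1 lower at an unadjusted *p* under 0.05, 0 with DESeq2). In DIFF 1 was called, lower in DMD (20.0%, beside 17.5% of all genes). It was *TMEM59*, which promotes the coupling of LC3 to endosomes, at 515 ± 48.2 CPM in DMD and 859 ± 76.6 in WT (log2 fold change −0.76 with SE 0.10 and adjusted *p* = 6.81e-06). Of these 5 genes, 4 were higher in WT DIFF than in WT PROL (*NPC2*, *PLD3*, *SCARB2* and *TMEM59*; 17.9% of all genes were) and 1 in DMD DIFF than in DMD PROL (*SCARB2*; 16.0% of all genes). Whether these counts differ between the genotypes was not tested for the list as a whole. Gene by gene, edgeR's interaction test called 2 of the 5 toward a lower genotype effect in DIFF (40.0%, beside 13.0% of all genes). DESeq2 called *NPC2* and *PLD3*.

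Autophagy receptors and initiators behaved differently from one another. *OPTN*, the receptor optineurin, stood at 374, 243, 445 and 352 CPM in WT PROL and 131, 133, 130.3 and 139 in DMD PROL, 2.67-fold lower (log2 fold change −1.42 with SE 0.15 and adjusted *p* = 4.12e-06, edgeR). In DIFF the values of 476, 301, 309.5 and 329 in WT and 364, 327, 382 and 363 in DMD overlapped (log2 fold change −0.00 with SE 0.13 and adjusted *p* = 0.994), and the interaction was called (log2 fold change 1.42 with SE 0.22 and adjusted *p* = 3.47e-05). *SH3GLB1*, a membrane-bending partner of beclin, was higher in DMD DIFF, at 246 ± 30.3 against 103 ± 7.07 CPM (log2 fold change 1.23 with SE 0.12 and adjusted *p* = 3.92e-07). *BECN1*, which encodes beclin, was lower, at 33.3 ± 6.36 against 52.5 ± 11.2 CPM (log2 fold change −0.67 with SE 0.22 and adjusted *p* = 0.0203). Of 7 genes tested in this list, 1 was lower in PROL (*OPTN*), and 1 was higher and 1 lower in DIFF. Each is 14.3% of the list, beside 9.87% of all genes lower in PROL and 16.1% higher and 17.5% lower in DIFF, and DESeq2 called 2 lower in DIFF.

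Among regulators of lysosome and autophagy genes, *MITF*, a transcription factor related to TFEB, was lower in DMD in DIFF. It stood at 72.5, 93.5, 74.8 and 90.0 CPM in WT DIFF and 16.8, 12.9, 14.4 and 11.4 in DMD DIFF, 6.02-fold lower (log2 fold change −2.59 with SE 0.21 and adjusted *p* = 4.42e-08, edgeR). In PROL it was at 20.1 ± 4.78 in WT and 20.4 ± 3.51 in DMD, with overlap (log2 fold change 0.01 with SE 0.28 and adjusted *p* = 0.982), and the interaction was called (log2 fold change −2.61 with SE 0.32 and adjusted *p* = 2.25e-06). *MITF* rose from PROL to DIFF in WT (log2 fold change 2.05 with SE 0.21 and adjusted *p* = 1.67e-06, edgeR). It was not called in DMD (log2 fold change −0.56 with SE 0.29 and adjusted *p* = 0.135). A link between *MITF* and the members was not tested. Of this list, 10 of 31 genes were in the count table, and *TFEB* was not among them. *TRIM63*, the muscle ubiquitin ligase MuRF1, stood at 2.73, 0, 2.58 and 2.69 CPM in WT DIFF and 37.8, 34.0, 31.7 and 48.4 in DMD DIFF (log2 fold change 4.15 with SE 0.45 and adjusted *p* = 1.12e-06), a fold that rests on few WT reads. *FBXO32*, the ligase atrogin-1, was lower, at 27.05 ± 8.80 against 48.7 ± 11.4 CPM (log2 fold change −0.86 with SE 0.27 and adjusted *p* = 0.0136).

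*DDIT4*, an inhibitor of the growth kinase mTORC1, was lower in DMD PROL (log2 fold change −1.06 with SE 0.13 and adjusted *p* = 1.78e-05) and higher in DMD DIFF (log2 fold change 0.99 with SE 0.12 and adjusted *p* = 3.31e-06, both edgeR). *PRKAA2*, a catalytic subunit of the energy sensor AMPK, was higher in DMD PROL at 11.6 ± 4.26 against 3.82 ± 1.73 CPM (log2 fold change 1.54 with SE 0.48 and adjusted *p* = 0.0254). The muscle marker sums were 23.6 times higher in DMD than in WT in PROL and 4.94 times in DIFF. Their part in the values of this list was not tested. In all, 1 of 7 genes of this list tested was higher and 1 lower in PROL, 14.3% each beside 8.36% and 9.87% of all genes. DESeq2 called 3 higher and 1 lower there. In DIFF 2 of 8 were higher (*DDIT4* and *TRIM63*) and 2 lower (*MITF* and *FBXO32*). That is 25.0% each beside 16.1% and 17.5% of all genes, and DESeq2 gave the same counts. *TRIM63* and *FBXO32* encode ubiquitin ligases and are not read here as regulators of lysosome or autophagy genes.

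Of 6 ESCRT and retromer partners tested in PROL, 1 was called lower in DMD (16.7%, beside 9.87% of all genes). It was the ESCRT-III gene *CHMP4C*, at 0, 8.97, 8.22 and 6.56 CPM in DMD and 26.1, 22.4, 14.2 and 15.4 in WT (log2 fold change −1.72 with SE 0.55 and adjusted *p* = 0.0304, edgeR). Of 5 tested in DIFF, 0 were (1 at an unadjusted *p* under 0.05, 0 with DESeq2). Of 4 RAB regulators, 0 were called in PROL (2 at an unadjusted *p* under 0.05, 0 with DESeq2) and 1 in DIFF (25.0% lower, beside 17.5% of all genes), *TBC1D20*, which switches off *RAB1A*, at 181 ± 31.1 against 364 ± 37.3 CPM (log2 fold change −1.03 with SE 0.12 and adjusted *p* = 2.85e-06). Of 9 clathrin and adaptor genes 0 were called in either state under edgeR or DESeq2, with 3 at an unadjusted *p* under 0.05 in PROL and 2 in DIFF. Of 2 genes tested in the list of cathepsin inhibitors, the cystatin gene *CST3* was not called between genotypes. *SERPING1* stood in this list, but its protein is the inhibitor of complement C1 and it is not read here as a cathepsin inhibitor. It was lower in DMD in both states, with 58.0 ± 7.03 against 2235 ± 324 CPM in DIFF (log2 fold change −5.29 with SE 0.14 and adjusted *p* = 2.45e-14). This 1 gene is 50.0% of the list, beside 9.87% of all genes lower in PROL and 17.5% in DIFF.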

How the data were processed

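Processed data of 16 libraries were taken as deposited. The authors made 3′ RNA libraries with molecular identifiers from 25 ng of total RNA, with each sample run as 2 technical duplicates, and aligned the reads with STAR 2.7.10b to the pig genome build susScr3. The deposited table holds raw counts per gene, 1 column per duplicate (32 columns, 0 without a sample). All values are even (0 odd values); the reason, the gene annotation and any strand setting are not given in the sources used here. The duplicates of a sample were summed and are called 1 library here. The test was edgeR 4.0.16 under R 4.3.3, fitted to the libraries of each comparison after a filter within groups (filterByExpr, minimum count 10, minimum total 15) and TMM scaling, as a robust quasi-likelihood model. DESeq2 1.42.0 was an alternative. The script was tested on simulated data. CPM were not divided by gene length. A standard error is the absolute log2 fold change over the square root of F, so it restates the test. A group's 4 libraries came from 4 animals, and PROL and DIFF libraries with the same number from the same animal, per the labels. Deviations from the group means correlated at 0.0999 to 0.172 within an animal, best with the own animal in 8 of 8. Comparisons were DMD against WT in each state, DIFF against PROL in each genotype, and the interaction. Members named library by library were those called in any comparison and those with the most counts in each family. Genes of the lists were named where called between genotypes, except 1 that is not reported here. The members and lists were chosen with earlier results of these data known. Alternatives were other scalings and filters, DESeq2, 1 fit over all libraries, each duplicate alone, the animal or replicate number as a block, each library left out and, added after seeing the data, halved counts and *RN18S* left out. No reference genome was used, and sequences are not printed here.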

Additional observations from a re-analysis of the deposited data

Results flagged for a closer look

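Of 68 groups of 4 libraries examined for 17 members, 5 held a library far from the other 3, where chance gives about 1 in 20. They were *MAP1LC3A* in DMD PROL replicate 4 at 147 CPM, *MAP1LC3B* in DMD PROL replicate 1 at 234 CPM, *CTSH* in WT PROL replicate 3 at 355 CPM, *CTSL* in DMD DIFF replicate 1 at 315 CPM and *RAB10* in WT DIFF replicate 1 at 293 CPM.

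The difference between DMD and WT itself differed between PROL and DIFF in edgeR's interaction test for *CTSL* (log2 −1.34, adjusted *p* = 8.79e-06). Of the list genes named above for a call between genotypes, it also differed for the following. The effect was lower in DIFF for *SERPING1* (−3.34, adjusted *p* = 2.03e-06 in edgeR), *MITF* (−2.61, 2.25e-06), *FBXO32* (−1.59, 0.00956), *TBC1D20* (−1.29, 2.45e-05) and *SUMF1* (−0.78, 0.00641). It was higher in DIFF for *CHMP4C* (2.31, adjusted *p* = 0.0347 in edgeR), *DDIT4* (2.05, 2.09e-08), *OPTN* (1.42, 3.47e-05) and *SH3GLB1* (0.99, 1.85e-04). *CHMP4C* had few reads. Among list genes without a call between genotypes, edgeR's interaction test called 2 of 5 lysosomal membrane genes toward a lower effect in DIFF. That is 40.0%, beside 13.0% of all genes. It also called 1 of 9 clathrin and adaptor genes toward a higher effect (11.1%, beside 10.5% of all genes).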

How the results depend on the processing

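Of 1598 values of named members recomputed under other settings, 1539 kept their side of the thresholds, 23 lost a call, 36 gained one and 0 called values changed sign. Of 22 called values, 13 were kept in every setting, among them both of *CTSZ*, those of *LAMP2* between genotypes and all of *CTSL*. On library size alone, 7 members were lower in PROL (4 with TMM), 1 higher in DIFF (0), 4 lower in WT DIFF (0) and 8 higher in the interaction (0). In WT DIFF, RLE scaling, no filter, DESeq2, the second duplicate alone and the replicate block each gave 1 lower member, and the first duplicate alone gave 5 higher (3). In the interaction, RLE scaling, DESeq2, the first duplicate and halved counts each gave 1 higher member, and the second duplicate 2 lower (1). With 1 library left out, members called higher and lower ranged from 0 to 0 and 3 to 5 in PROL, 0 to 1 and 4 to 6 in DIFF, 3 to 6 and 0 to 1 in WT, 7 to 10 and 0 to 2 in DMD, and 0 to 3 and 1 to 2 in the interaction. The second duplicate alone lost *CTSK* in both its comparisons and *ATP6V1C1* and *RAB1A* in DMD; the first lost *RAB8A*. The causes were not tested.

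With the animal as a block, only *ATG5* changed a call between states. Between genotypes the numbers mark different animals, and the replicate block lost *ATG7* in PROL (log2 fold change −0.75, adjusted *p* = 0.0632 in edgeR), leaving 3 lower members, and left 4 in DIFF. Few reads limit *CTSK*, *ATG7*, *RAB1A* and the GABARAP genes, and 16 members could not be tested at this depth.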
